A study of Mus musculus with 8 samples.

Results

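This report describes how gene expression in mouse lung differed between 25 hours and 7 hours after mepenzolate was given into the airways. The members are the 2 arrays labelled mepenzolate at 25 hours and the 2 labelled mepenzolate at 7 hours, 4 of the 8 arrays of the series. The other 4 arrays came from vehicle lungs at the same 2 times and served as the comparison. Each Affymetrix array held total RNA from lung tissue. The study set out to learn how mepenzolate, a blocker of muscarinic acetylcholine receptors long used for disorders of the gut, acts on inflammation and oxidative stress in the lung.

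The labels of all 8 samples, vehicle included, carry 1 treatment text, worded for mepenzolate, in which the drug in phosphate-buffered saline was given from a micropipette placed in the trachea under chloral hydrate anaesthesia at 500 mg/kg. The 4 groups are labelled mepenzolate or vehicle, each at 7 and at 25 hours. The labels give no strain, age, sex, drug dose or hour of day, and they name no lung injury. Whether a group's 2 arrays stem from different mice is not stated, so each p-value measures the spread between these arrays, which may be technical. The 2 times lie 18 hours apart, so the time since dosing and the hour of day cannot be told apart. Lung identity was clear on all 4 mepenzolate arrays, with surfactant protein gene Sftpc between 13.49 and 13.56, club cell secretoglobin Scgb1a1 between 13.26 and 13.49 and alveolar type 1 marker Ager between 12.30 and 12.47, all as log2 levels.

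Nearly every mammalian cell runs a molecular clock. In it, BMAL1, the product of Arntl, and its partner CLOCK bind E-box sequences and switch on the Period, Cryptochrome and Rev-erb genes, whose products then hold BMAL1 and CLOCK back. The PAR-domain transcription factors DBP, TEF and HLF are driven by the same E-boxes and carry the rhythm to D-box genes, and glucocorticoids can reset the loop through Per1. In lung, clock activity is well known in club cells, and numbers of circulating lymphocytes also follow the time of day.

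Across 14953 genes with a mean level at or above the 25th percentile, 4 genes passed an adjusted p of 0.05 in the 25-hour against 7-hour comparison of mepenzolate lungs, which is 0.0268% of those tested (limma, Benjamini-Hochberg adjustment). Arntl was the 1 gene that rose, 0.00669% of those tested. Per2, Tef and Tspan4 fell, 0.0201% of those tested. At an unadjusted p under 0.05 stood 952 genes, 6.37% of those tested, with 490 higher at 25 hours (3.28%) and 462 lower (3.09%). Both 25-hour arrays lay above both 7-hour arrays for 12.5% of genes and below both for 15.2%, and 47.9% of genes had a difference above 0. These shares are the background for every count given here. The median difference over all genes was -0.01 on the log2 scale.

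Arntl stood at log2 levels of 6.59 and 6.22 on the 7-hour arrays and at 7.80 and 7.99 on the 25-hour arrays. Arntl rose by 1.49 ± 0.13 (log2 difference ± SE), a 2.81-fold difference, with an adjusted p of 0.0391. Both 25-hour arrays lay more than 1 log2 unit above both 7-hour arrays. Per2, a Period protein that represses BMAL1 and CLOCK, had levels of 8.60 and 8.50 at 7 hours and 7.60 and 7.29 at 25 hours. Per2 fell by 1.11 ± 0.12, or 2.15-fold (adjusted p = 0.0466). Tef stood at 9.44 and 9.41 at 7 hours and at 8.69 and 8.60 at 25 hours. Tef fell by 0.78 ± 0.08, or 1.72-fold (adjusted p = 0.0466). Tspan4 encodes a tetraspanin, a membrane protein known from migrasomes, the vesicles left behind by migrating cells. Tspan4 stood at 10.59 and 10.66 at 7 hours and at 9.75 and 9.65 at 25 hours, so it fell by 0.93 ± 0.09, or 1.90-fold (adjusted p = 0.0466). In none of these 4 genes did the arrays of the 2 times overlap.

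All 4 genes passed in vehicle lungs too, in the same direction, where the log2 difference was 1.46 for Arntl, -1.39 for Per2, -0.77 for Tef and -0.94 for Tspan4. The number called rests on every array. Leaving out any 1 of the 8 arrays left between 0 and 2 genes past the threshold, and Arntl was the 1 gene of the 4 that passed in any of those fits. The differences moved little, from 1.31 to 1.68 for Arntl, from -1.26 to -0.95 for Per2, from -0.82 to -0.74 for Tef and from -0.98 to -0.88 for Tspan4.

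**Figure D1:**
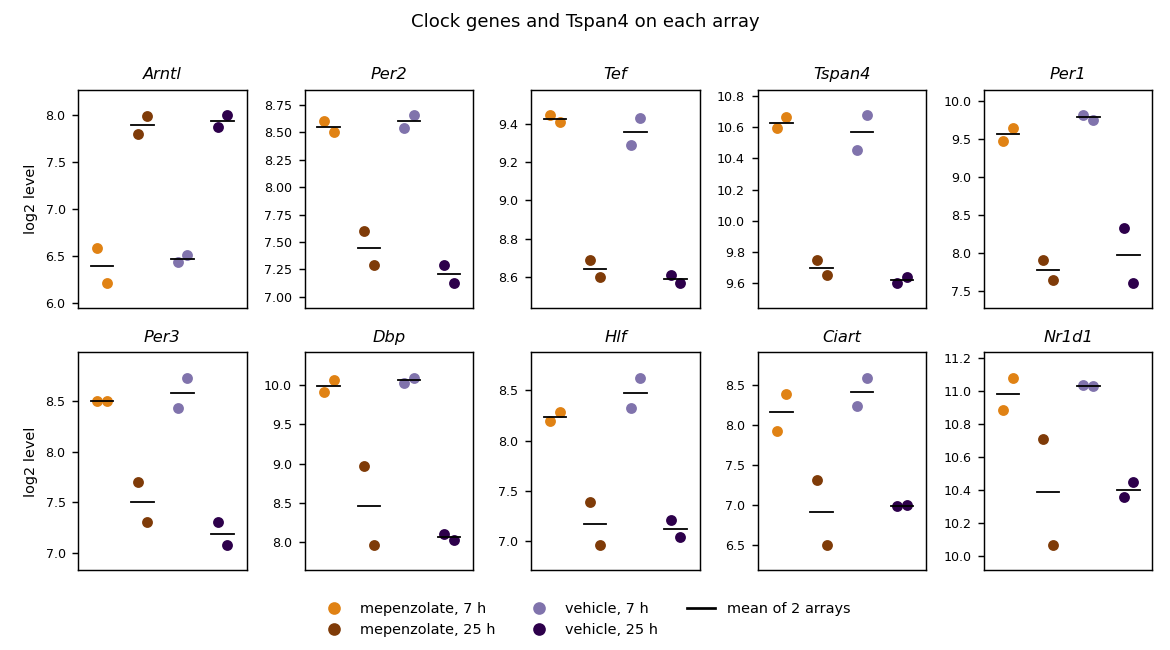
Log2 level (RMA) of 9 clock genes and Tspan4 on each of the 8 arrays, in 1 panel per gene with its own vertical axis; points are arrays, coloured by treatment and time, and black lines are the means of 2 arrays. Arntl sits at 6.59 and 6.22 at 7 hours and at 7.80 and 7.99 at 25 hours in mepenzolate lungs, and the other 9 genes are lower at 25 hours in both treatments.

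The sequences before the start sites of these genes were read because E-boxes drive the negative arm of the clock. The E-box CACGTG is its own reverse complement, so 1 search covers both strands. It occurred in the 250 bases upstream in 6.02% of 32851 promoter windows (RefSeq, GRCm38.p6). Of the 3 genes that fell, Tef and Tspan4 have windows in that table. Tef holds an E-box in each of its 2 windows, whose first base lies 127 and 138 bases before the start site. Tspan4 holds 1, at 51 bases. It is on no clock list, and its window was picked after the levels were seen. The windows follow, 5′ to 3′ on the strand of the gene, with E-boxes in capitals. They lie at chr15:81802423-81802672 and chr15:81811164-81811413 for Tef and chr7:141476130-141476379 for Tspan4, all on the plus strand.
Tef, first window: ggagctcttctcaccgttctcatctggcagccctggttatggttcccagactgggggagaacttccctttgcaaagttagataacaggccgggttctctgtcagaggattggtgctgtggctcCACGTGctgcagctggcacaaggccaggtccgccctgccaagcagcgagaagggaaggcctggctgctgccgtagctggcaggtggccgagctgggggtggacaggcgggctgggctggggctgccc
Tef, second window: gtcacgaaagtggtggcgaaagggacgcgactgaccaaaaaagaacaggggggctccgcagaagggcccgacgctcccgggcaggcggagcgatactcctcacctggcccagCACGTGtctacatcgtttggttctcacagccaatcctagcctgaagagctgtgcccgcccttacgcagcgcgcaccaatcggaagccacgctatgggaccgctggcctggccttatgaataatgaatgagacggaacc
Tspan4: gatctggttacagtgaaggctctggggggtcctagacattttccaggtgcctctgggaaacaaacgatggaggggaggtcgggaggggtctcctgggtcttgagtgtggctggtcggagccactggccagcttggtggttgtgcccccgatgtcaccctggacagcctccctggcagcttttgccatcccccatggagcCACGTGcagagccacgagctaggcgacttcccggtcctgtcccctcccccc

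Among the 9 clock repressors, 7 have a window and 3 of these, Ciart, Bhlhe41 and Per1, hold an E-box. Over all genes with a window the share is 6.86%. Other lists hold E-boxes too, in 5 of 18 glucocorticoid targets, Per1 among them, and 3 of 17 heat shock genes. The same holds for 2 of 11 clock outputs and 1 of 6 clock activators with a window. Ciart holds 3, at 116, 58 and 44 bases before its start site, Bhlhe41 holds 1 at 153 bases and Per1 holds 1 at 166 bases. Per3 holds no E-box in its window and 2 copies of the D-box TTANGTAA, at 205 and 158 bases. The D-box is not its own reverse complement, so both strands were searched, and it occurred in 2.06% of all windows. The windows of Ciart (chr3:95882229-95882478, minus strand), Per1 (chr11:69098699-69098948, plus strand) and Per3 (chr4:151044666-151044915, minus strand) were picked after the levels were seen. They are shown because these genes had large differences, with E-boxes in capitals for Ciart and Per1 and D-boxes in capitals for Per3. A match is a description of the letters and does not show a bound factor.
Ciart: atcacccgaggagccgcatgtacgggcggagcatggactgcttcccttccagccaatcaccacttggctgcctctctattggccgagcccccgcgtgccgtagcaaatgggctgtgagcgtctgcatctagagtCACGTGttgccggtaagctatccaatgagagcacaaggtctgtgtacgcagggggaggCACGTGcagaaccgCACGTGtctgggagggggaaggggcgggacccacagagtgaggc
Per1: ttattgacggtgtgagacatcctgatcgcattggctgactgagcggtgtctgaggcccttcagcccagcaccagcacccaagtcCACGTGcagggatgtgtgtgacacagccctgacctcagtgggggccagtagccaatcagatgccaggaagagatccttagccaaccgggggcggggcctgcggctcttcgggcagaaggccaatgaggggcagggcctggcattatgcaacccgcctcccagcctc
Per3: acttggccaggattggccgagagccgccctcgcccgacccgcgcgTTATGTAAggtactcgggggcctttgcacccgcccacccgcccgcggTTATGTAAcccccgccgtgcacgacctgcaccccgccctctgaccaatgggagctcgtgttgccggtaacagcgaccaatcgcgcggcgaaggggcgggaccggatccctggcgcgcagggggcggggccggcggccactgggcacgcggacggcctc

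All 9 clock repressors were lower on both 25-hour arrays than on both 7-hour arrays of mepenzolate lungs, against 15.2% of all genes, and all 9 had an unadjusted p under 0.05. Their median difference was -0.75, and Per2 was the 1 member that passed the adjusted threshold. Per1, the Period gene that also answers to glucocorticoids, had levels of 9.48 and 9.65 at 7 hours and 7.91 and 7.64 at 25 hours. The Per1 difference of -1.79 ± 0.21 was the most negative of all the genes named here, 3.45-fold, and its adjusted p was 0.0753. Per3 stood at 8.50 on both 7-hour arrays and at 7.70 and 7.31 at 25 hours (-0.997 ± 0.15, adjusted p = 0.155). Ciart, a repressor that recruits histone deacetylases to E-boxes, stood at 7.92 and 8.39 and then at 7.31 and 6.50 (-1.25 ± 0.26, adjusted p = 0.304). In all 3 the arrays of the 2 times did not overlap, and the 2 Ciart levels at 25 hours lay far apart.

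The Rev-erb receptors, which repress Arntl by displacing ROR activators, differed less. Nr1d1 stood at 10.88 and 11.08 at 7 hours and at 10.71 and 10.06 at 25 hours (-0.60 ± 0.18, adjusted p = 0.559). Nr1d2 differed by -0.75 ± 0.14. The DEC repressors, which compete for E-boxes, differed by -0.64 ± 0.11 for Bhlhe41 and -0.54 ± 0.14 for Bhlhe40. Cry2, a Cryptochrome, differed by -0.32 ± 0.09. On the replicate 2 array at 25 hours the list of repressors was lower than on the replicate 1 array, with mean scores of -0.67 and -0.24 relative to the mean of all 8 arrays. Without the replicate 2 array the list median was -0.54, and without the replicate 1 array it was -0.97.

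Of the 8 genes listed as clock activators or as genes driven through ROR elements, 5 were tested. Besides Arntl, Clock differed by 0.24 ± 0.11 and Nfil3, a repressor of D-box genes, by 0.27 ± 0.15. Rora, which encodes a ROR activator, differed by -0.41 ± 0.09 with both 25-hour arrays below both 7-hour arrays, and Cry1 by -0.17 ± 0.10. None of these 4 passed (adjusted p from 0.333 to 0.892).

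Of 13 clock output genes tested, 6 had an unadjusted p under 0.05 and were lower, 1 was higher, and Tef passed. Dbp stood at 9.91 and 10.06 at 7 hours and at 8.97 and 7.96 at 25 hours (-1.52 ± 0.26, 2.87-fold, adjusted p = 0.192). The 2 Dbp levels at 25 hours were about 1 log2 unit apart, yet both lay below the 7-hour levels. Hlf differed by -1.06 ± 0.16, the deubiquitinase gene Usp2 by -0.52 ± 0.11, the cell cycle kinase gene Wee1 by -0.54 ± 0.14 and the glucocorticoid-induced gene Tsc22d3 by -0.54 ± 0.10. Cirbp, which encodes a cold-inducible RNA-binding protein, stood at 8.76 and 8.62 and then at 8.83 and 9.35 (0.40 ± 0.15). The remaining members lay closer to 0. The clock kinases Csnk1e and Csnk1d differed by -0.18 ± 0.09 and -0.12 ± 0.07, Noct, a gene related to deadenylases, by 0.07 ± 0.08, Lonrf3 by 0.04 ± 0.12, Nampt, an enzyme gene of NAD synthesis, by 0.02 ± 0.08 and the F-box gene Fbxl21 by 0.00 ± 0.09.

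Over the 3 clock lists, 18 of 27 genes tested had an unadjusted p under 0.05 in mepenzolate lungs, and 26 of 27 had the same sign in vehicle lungs. The vehicle comparison shares no array with the mepenzolate comparison, though both use 1 estimate of the spread. In vehicle lungs 13 genes passed, 0.0869% of those tested, and 859 had an unadjusted p under 0.05 (5.74%). All 13 had the same sign in mepenzolate lungs with an unadjusted p under 0.05 there. In 11 of the 13 the vehicle difference was the further from 0, in a set chosen on the vehicle arrays. Of the 27 clock genes, 3 passed in mepenzolate lungs and 9 in vehicle lungs.

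The difference between the 2 time courses was tested in the same fit. No gene passed (0%, smallest adjusted p of 1 by limma), and 400 had an unadjusted p under 0.05, which is 2.68% of those tested. So no time difference was shown to be particular to mepenzolate. The median of the clock repressors was -0.75 in mepenzolate and -1.20 in vehicle lungs, and 1 of the 9, Bhlhe41, had an unadjusted p under 0.05 for the difference. Bhlhe41 stood at 7.03 and 6.70 in mepenzolate and at 6.42 and 6.55 in vehicle lungs at 25 hours. Usp2 and Tsc22d3 also had differences closer to 0 in mepenzolate than in vehicle lungs, -0.52 against -0.96 for Usp2 and -0.54 against -1.07 for Tsc22d3 (unadjusted p of the difference 0.021 and 0.0065). Nampt, with 0.02 against -0.26, had an unadjusted p of 0.043.

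**Figure D2:**
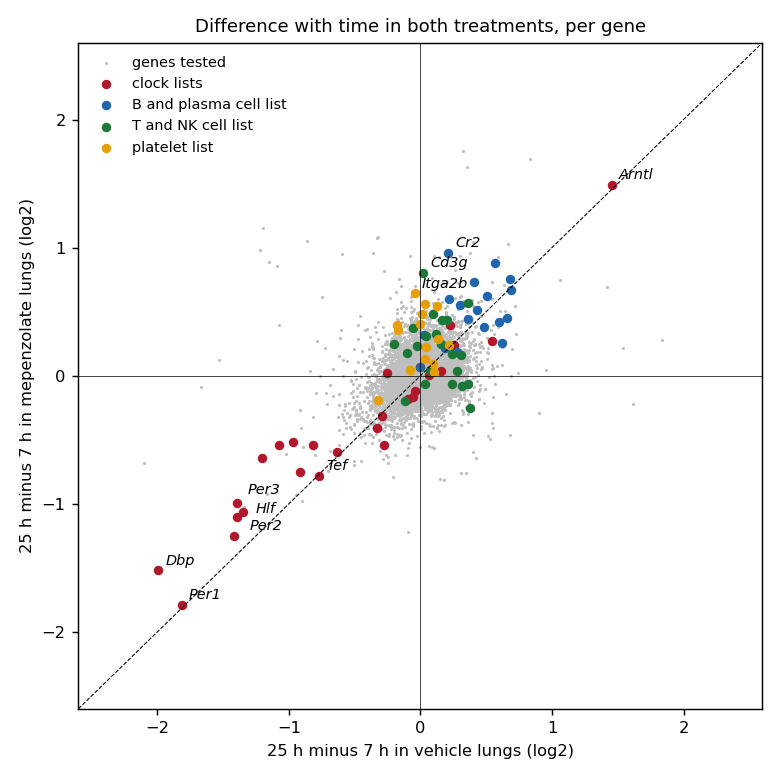
Log2 difference between 25 and 7 hours in vehicle lungs (horizontal) and mepenzolate lungs (vertical), 1 point per gene tested, with 4 groups of gene lists coloured and a dashed line where both differences are equal. Arntl, Per1 and Tef lie near the dashed line, while Cd3g and Itga2b lie near 0 on the horizontal axis and at 0.80 and 0.64 on the vertical axis.

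Across all 14953 genes the 2 time courses had a Pearson r of 0.31 over genes, which are not independent replicates, and 58.3% of genes had the same sign. Among the 952 genes with an unadjusted p under 0.05 in mepenzolate lungs, 752 had the same sign in vehicle lungs, or 79.0%. Of the 15 genes named for being lower in mepenzolate lungs, all 15 were lower in vehicle lungs without overlap of the arrays. Of the 15 named for being higher, 13 had the same sign in vehicle lungs and 9 were higher there without overlap.

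Glucocorticoid target genes were mostly lower at 25 hours. Corticosterone follows the hour of day and also rises after anaesthesia and handling, and its receptor switches on genes such as Tsc22d3, which encodes the anti-inflammatory protein GILZ. Of 20 tested members, 10 had an unadjusted p under 0.05 and all 10 were lower, against 3.09% of all genes. The list median was -0.29 in mepenzolate and -0.53 in vehicle lungs. Leaving out the 2 members that are also on a clock list, Per1 and Tsc22d3, the median over 18 genes was -0.23. Tsc22d3 had levels of 9.84 and 9.98 at 7 hours and 9.45 and 9.29 at 25 hours. Timp3, an inhibitor of matrix metalloproteinases, stood at 12.10 and 12.15 and then at 11.72 and 11.70 (-0.42 ± 0.08, adjusted p = 0.255). No member of this list passed in mepenzolate lungs.

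In 7 of the 20 glucocorticoid targets the difference between treatments had an unadjusted p under 0.05, against 2.68% of all genes. The clearest was Zbtb16, a zinc finger gene strongly induced by glucocorticoids, which was picked after its values were seen. In mepenzolate lungs Zbtb16 stood at 8.79 and 9.24 at 7 hours and at 8.52 and 8.16 at 25 hours. In vehicle lungs it stood at 9.92 and 10.44 and then at 8.26 and 7.90. The difference was -0.68 ± 0.22 in mepenzolate and -2.10 ± 0.22 in vehicle lungs (adjusted p = 0.0255 in vehicle), and the unadjusted p for the difference between them was 0.002. The 7-hour levels in mepenzolate lungs lay below those in vehicle lungs, while the 25-hour levels of the 2 treatments overlapped.

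Other early-response and stress genes differed less. Of 25 immediate early genes 4 were lower and 2 higher at an unadjusted p under 0.05, with a median of -0.06 (0.01 without the replicate 2 array at 25 hours). Csrnp1, a nuclear factor gene induced by AXIN1, differed by -0.38 ± 0.08, the zinc finger gene Klf6 by -0.28 ± 0.08 and the orphan receptor gene Nr4a3 by -0.41 ± 0.12. The 20 heat shock genes had a median of -0.05 (0.05 without the replicate 1 array at 7 hours), and 1 member stood far from the rest. Hspb1, which encodes the small heat shock protein HSP27, stood at 10.26 and 10.68 at 7 hours and at 9.62 and 9.37 at 25 hours (-0.98 ± 0.14, 1.97-fold, adjusted p = 0.119), with -0.90 in vehicle lungs. Cryab, a related small heat shock gene, differed by -0.22 ± 0.09. Of 24 genes of the unfolded protein response, 4 were lower at an unadjusted p under 0.05 (2 with array weights or with the 4 mepenzolate arrays alone), among them Herpud1 at -0.32 ± 0.08 and Sdf2l1 at -0.31 ± 0.08, both active at the endoplasmic reticulum.

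The other genes with the smallest p-values among those lower at 25 hours belong to several pathways, and none passed. Mettl21e, which encodes a lysine methyltransferase of muscle, stood at 7.43 and 7.76 at 7 hours and at 6.58 and 6.55 at 25 hours (-1.03 ± 0.18, adjusted p = 0.184). Plcb1 encodes a phospholipase C that acts below Gq-coupled receptors, muscarinic receptors among them. Plcb1 stood at 8.77 and 8.60 and then at 7.98 and 7.91 (-0.74 ± 0.12, adjusted p = 0.155), with a like difference of -0.70 in vehicle lungs. Ccn2, a matricellular growth factor gene, differed by -0.69 ± 0.11 and Pfkfb3, a regulator of glycolysis, by -0.62 ± 0.10. These differences in vehicle lungs were -1.34 for Mettl21e, -0.64 for Ccn2 and -0.80 for Pfkfb3. Greb1, an oestrogen-responsive gene, stood at 6.34 and 6.40 and then at 5.71 and 5.68 (-0.68 ± 0.08, adjusted p = 0.0898), against -0.25 in vehicle lungs, and its 25-hour levels lie under 5.93, the level below which a mean was filtered out.

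Genes of T cells stood higher at 25 hours in mepenzolate lungs. Of the 14 genes named as higher besides Arntl, several are known from lymphocytes. Cd3g, which encodes the CD3 gamma chain, stood at 8.31 and 8.04 at 7 hours and at 8.93 and 9.03 at 25 hours. The Cd3g difference was 0.80 ± 0.10, or 1.75-fold, with an adjusted p of 0.0964, and neither time overlapped the other. In vehicle lungs Cd3g stayed between 8.35 and 8.44 on all 4 arrays. Ms4a4b, a membrane protein gene of T cells, stood at 6.77 and 6.63 and then at 7.46 and 7.47 (0.76 ± 0.10, adjusted p = 0.0898). Its vehicle levels ran from 7.00 to 7.22, so they lay between the mepenzolate levels of the 2 times.

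Slamf6, a lymphocyte receptor of the SLAM family, differed by 0.66 ± 0.09, and Themis, which sets T cell receptor signalling in thymocytes, by 0.64 ± 0.10. Cd96, a receptor of T and NK cells, differed by 0.62 ± 0.10 and Rasgrp1, which links the T cell receptor to Ras, by 0.58 ± 0.09. Arhgap15, a Rac-inactivating protein gene of leukocytes, differed by 0.72 ± 0.10 and the lymphocyte surface gene Cd52 by 0.62 ± 0.08. Their adjusted p-values ran from 0.0987 for Cd52 to 0.171 for Rasgrp1. In vehicle lungs the differences were 0.11 for Slamf6, -0.04 for Themis, 0.30 for Cd96, 0.33 for Rasgrp1, 0.17 for Arhgap15 and 0.49 for Cd52. The difference between treatments had an unadjusted p of 0.00066 for Cd3g, 0.001 for Ms4a4b, 0.0024 for Slamf6 and 0.0013 for Themis, and none passed after adjustment.

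Over the whole T and NK cell list, 10 of 22 genes tested were higher with an unadjusted p under 0.05, against 3.28% of all genes, none was lower, and 12 were higher without overlap, against 12.5%. The median was 0.21 in mepenzolate and 0.14 in vehicle lungs. Ccr7, the homing receptor of naive T cells, and Cd3e each differed by 0.44 ± 0.09. The 22 members ran from -0.25 to 0.80, with 16 above 0. All 10 genes of the T cell receptor and coreceptors were above 0, with a median of 0.35 (0.11 in vehicle lungs). Of 8 cytotoxic and NK cell genes 6 were below 0, with a median of -0.07 (0.29 in vehicle lungs). Of 7 thymocyte genes, Themis, Cd8a and Cd4 were higher at an unadjusted p under 0.05, and the last 2 are also on the T cell list. This count was 1 without the replicate 1 array at 7 hours or with the 4 mepenzolate arrays alone. In bulk tissue, fewer cells of a type and less RNA per cell cannot be told apart.

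All 18 B and plasma cell genes tested were higher on both 25-hour arrays of mepenzolate lungs than on both 7-hour arrays, against 12.5% of all genes, and 12 had an unadjusted p under 0.05. Their median was 0.48. Cr2, the complement receptor of B cells, stood at 5.78 and 5.95 at 7 hours and at 6.66 and 6.98 at 25 hours (0.96 ± 0.20, adjusted p = 0.304). The lower of its 7-hour levels lies under the 5.93 of the filter. Cd22, an inhibitory coreceptor, stood at 7.76 and 7.90 and then at 8.23 and 8.32 (0.44 ± 0.13). Cd37, a tetraspanin of B cells, differed by 0.55 ± 0.17. No member passed. The list median in vehicle lungs was 0.42, where 17 of 18 members were above 0. The 2 vehicle arrays at 25 hours lay apart, with list scores of -0.08 and 0.49 relative to the mean of 8 arrays, against 0.15 and 0.34 in mepenzolate lungs. With any 1 mepenzolate array left out, all 18 stayed above 0 and the median lay between 0.42 and 0.58. The count of 12 was 7 without the replicate 1 array at 25 hours, 3 without the replicate 2 array at 25 hours, 4 without the replicate 1 array and 7 without the replicate 2 array at 7 hours, and 3 with array weights.

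**Figure D3:**
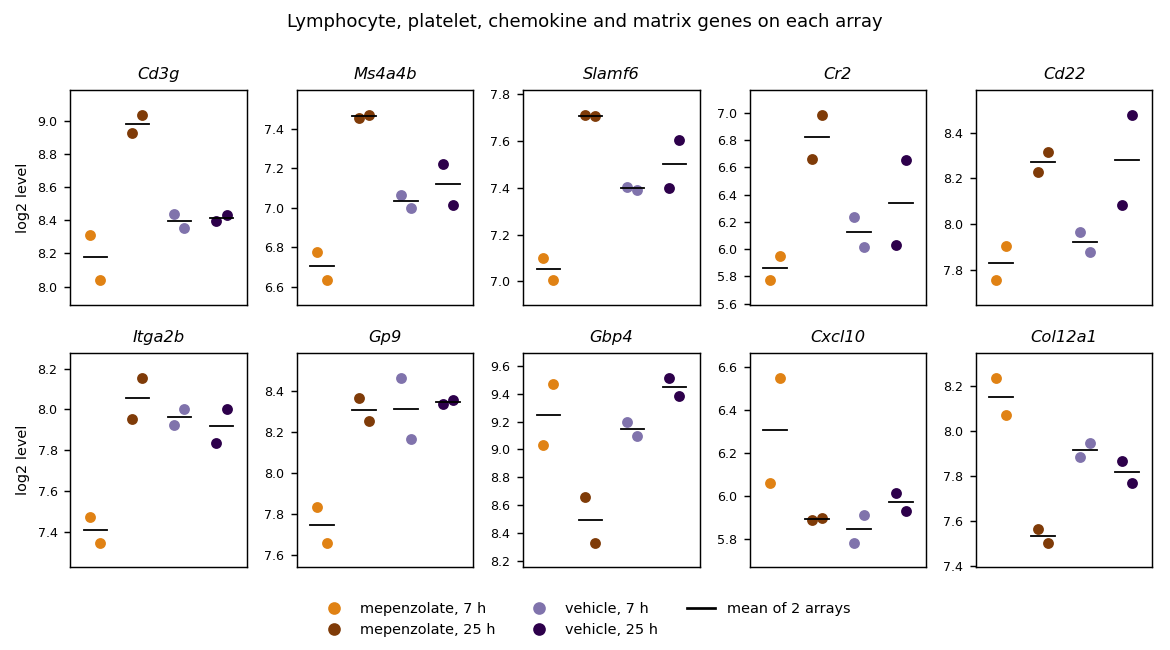
Log2 level (RMA) of 10 lymphocyte, platelet, interferon, chemokine and matrix genes on each of the 8 arrays, in 1 panel per gene with its own vertical axis; points are arrays and black lines are means of 2 arrays. Cd3g, Ms4a4b, Slamf6, Itga2b and Gp9 are lowest on the 2 mepenzolate arrays at 7 hours, and Gbp4 and Col12a1 are lowest on the 2 mepenzolate arrays at 25 hours.

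Platelet and megakaryocyte genes also stood higher at 25 hours in mepenzolate lungs. The lung is a known site of platelet release by megakaryocytes. Of 15 genes tested, 6 were higher with an unadjusted p under 0.05, against 3.28% of all genes. Higher without overlap were 10, against 12.5% of all genes, and none passed. The count of 6 was 3 without the replicate 1 array at 25 hours and 9 without the replicate 2 array. Itga2b, the alpha chain of the fibrinogen receptor, stood at 7.47 and 7.35 at 7 hours and at 7.95 and 8.16 at 25 hours (0.64 ± 0.10, 1.56-fold, adjusted p = 0.16). In vehicle lungs Itga2b stood at or above 7.84 on all 4 arrays, so the 2 mepenzolate arrays at 7 hours were the low ones. Gp9, a subunit of the von Willebrand factor receptor, stood at 7.83 and 7.66 and then at 8.36 and 8.25 (0.56 ± 0.12), with vehicle levels from 8.16 to 8.46. Tubb1, the tubulin of platelets, differed by 0.48 ± 0.11, against 0.01 in vehicle lungs. The list median was 0.29 in mepenzolate and 0.03 in vehicle lungs. For the difference between treatments, 4 of the 15 genes had an unadjusted p under 0.05, against 2.68% of all genes. The 4 erythroid genes tested had a median of 0.01 and none had an unadjusted p under 0.05.

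Myeloid markers showed no common direction. Neutrophil genes had a median of -0.07 over 20 genes tested, with 1 higher and 1 lower at an unadjusted p under 0.05. Padi4, the histone-citrullinating enzyme of neutrophils, stood at 5.87 and 5.81 at 7 hours and at 7.03 and 6.44 at 25 hours in mepenzolate lungs. In vehicle lungs Padi4 went the other way, from 6.70 and 7.17 to 5.80 and 5.78. This contrast of 2.04 had the smallest unadjusted p of all genes for the difference between treatments, 9e-05, and its low levels lie under the 5.93 of the filter. Clec4e, a receptor for fungal and mycobacterial glycolipids, differed by -0.40 ± 0.15. Alveolar macrophage genes had a median of 0.10 and monocyte and interstitial macrophage genes of 0.07, which were -0.06 and -0.01 without the replicate 1 array at 25 hours. Chil3, a chitinase-like protein gene on both of these lists, stood at 9.90 and 9.94 and then at 10.13 and 10.55 (0.42 ± 0.14), and Plac8 differed by 0.43 ± 0.14. Mast cell, basophil and eosinophil genes had a median of -0.07 over 6 genes tested, with Gata2, their transcription factor gene, at -0.26 ± 0.09.

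Most chemokine and interferon-induced genes stood slightly lower at 25 hours in mepenzolate lungs. Of 26 cytokine and chemokine genes tested, 21 were below 0 with a median of -0.10, against 0.12 in vehicle lungs, and 4 were lower and 1 higher at an unadjusted p under 0.05. Of the 4, the count was 0 without the replicate 2 array at 25 hours and 2 without the replicate 1 array. Cxcl10, the interferon-induced T cell chemokine, stood at 6.06 and 6.55 at 7 hours and at 5.89 and 5.90 at 25 hours (-0.41 ± 0.15), and its vehicle levels ran from 5.78 to 6.01. Its 25-hour mepenzolate levels lie under the 5.93 of the filter, and only its 7-hour mepenzolate levels lay above the vehicle range. Ccl7, a monocyte chemokine, differed by -0.28 ± 0.10, against 0.05 in vehicle lungs. Cxcl15, the lung epithelial chemokine lungkine, was the member higher at 25 hours, with 12.40 and 12.27 and then 12.69 and 12.60 (0.31 ± 0.09), and 0.30 in vehicle lungs. In 7 of these 26 genes the difference between treatments had an unadjusted p under 0.05, against 2.68% of all genes, and none passed.

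Of 27 interferon-induced genes tested, 23 were below 0, with a median of -0.13 (-0.05 in vehicle lungs, 20 below 0). In mepenzolate lungs 4 had an unadjusted p under 0.05, all lower, against 3.09% of all genes. Gbp4, an interferon-induced GTPase, stood at 9.03 and 9.47 at 7 hours and at 8.65 and 8.33 at 25 hours (-0.76 ± 0.16, adjusted p = 0.304). Vehicle levels of Gbp4 were 9.20 and 9.09 and then 9.52 and 9.38, and the difference between treatments of -1.06 had an unadjusted p of 0.0014. Iigp1, an immunity-related GTPase, stood at 8.23 and 8.84 and then at 7.80 and 7.69 (-0.79 ± 0.22), and Ifit3 differed by -0.62 ± 0.16. Without the replicate 2 array at 25 hours the list median was -0.04, while the count of 4 was 10 without the replicate 1 array at 25 hours and 9 without the replicate 1 array at 7 hours. NF-kappaB pathway genes had a median of 0.07 with none at an unadjusted p under 0.05, and its inhibitor gene Nfkbia stood lowest at -0.21 ± 0.09. MHC class II and dendritic cell genes had a median of 0.11 (-0.03 without the replicate 1 array at 7 hours), with H2-Ob at 0.54 ± 0.17 and the chemokine genes Ccl17 and Ccl22 at -0.43 ± 0.17 and -0.35 ± 0.14.

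A single mepenzolate array stood apart in genes of the airways. On the replicate 2 array at 7 hours the club cell score was -0.58 and the ciliated cell score -0.39 relative to the mean of 8 arrays, while its liver score was 0.45. The 2 mepenzolate arrays at 7 hours also had the lowest correlation of all array pairs, at 0.988. Ciliated cell genes were above 0 in 27 of 28 members with a median of 0.23, and without that array the median was -0.04. Club cell genes had a median of 0.17, and without that array it was 0.02. Liver genes had a median of -0.30, and without that array it was 0.05. Alb, the serum albumin gene, stood at 8.93 on that array and between 5.94 and 6.39 on the other 7. The part of tissue sampling in these differences was not tested.

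Some airway genes were also higher against the replicate 1 array at 7 hours, but their lists were split. Without the replicate 2 array at 7 hours, 10 of 20 club cell genes and 12 of 28 ciliated cell genes were above 0. Lypd2, a secretory cell gene, stood at 9.25 and 9.08 at 7 hours and at 9.67 and 9.88 at 25 hours (0.61 ± 0.12, adjusted p = 0.257), against -0.23 in vehicle lungs. Scgb3a2, a secretoglobin gene, stood at 9.56 and 9.42 and then at 9.86 and 10.15 (0.51 ± 0.12), and Scgb3a1 at 12.38 and 12.06 and then at 12.75 and 12.54 (0.42 ± 0.13). Cdhr3, a cadherin gene of ciliated cells, stood at 8.72 and 8.17 and then at 9.18 and 8.87 (0.58 ± 0.20). In each of these 4 genes both 25-hour arrays lay above both 7-hour arrays, and the replicate 2 array at 7 hours was the lower of its pair.

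Enzymes of detoxification, many of them made in club cells, stood slightly higher at 25 hours in mepenzolate lungs. Of 20 glutathione S-transferase genes tested, 19 were above 0 with a median of 0.13, against -0.03 in vehicle lungs, and 3 had an unadjusted p under 0.05, against 3.28% of all genes. Mgst2, a microsomal transferase gene, stood at 7.09 and 6.92 at 7 hours and at 7.24 and 7.53 at 25 hours (0.38 ± 0.12), and Gsto1 at 9.99 and 9.80 and then at 10.21 and 10.14 (0.28 ± 0.09). Gstm2 differed by 0.21 ± 0.08. Without the replicate 2 array at 7 hours, 14 of these genes were above 0 and 0 had an unadjusted p under 0.05 (median 0.11), and without the replicate 1 array at 7 hours 6 had one. Of 28 NRF2 target genes 6 were higher at an unadjusted p under 0.05, with a median of 0.07 and 20 above 0. Without the replicate 2 array at 7 hours, which stood low in club cell genes, 2 were higher at that p, 13 were above 0 and the median was -0.01. The carbonyl reductase genes Cbr3 and Cbr1 differed by 0.35 ± 0.10 and 0.23 ± 0.08, and Aldh3a1, an aldehyde dehydrogenase gene, by 0.46 ± 0.17. Aldh3a1 differed by -0.46 in vehicle lungs, with an unadjusted p of 0.0042 for the difference between treatments.

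Of 24 other xenobiotic genes 4 were higher and 1 lower at an unadjusted p under 0.05, with a median of 0.09. Sult1d1, a sulfotransferase gene, stood at 8.77 and 8.12 at 7 hours and at 9.79 and 9.25 at 25 hours (1.08 ± 0.29, adjusted p = 0.433), and its vehicle levels ran from 8.81 to 9.64. Ces1g, a carboxylesterase gene, differed by 0.40 ± 0.13, and Sult1a1, another sulfotransferase gene, by -0.32 ± 0.08. In vehicle lungs the differences were -0.33 for Sult1d1, -0.47 for Ces1g and -0.59 for Sult1a1. In 10 of these 24 genes the difference between treatments had an unadjusted p under 0.05, against 2.68% of all genes, and none passed. Without the replicate 2 array at 7 hours, the list median was 0.05, with 14 of 24 members above 0 and 2 higher at an unadjusted p under 0.05.

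**Figure D4:**
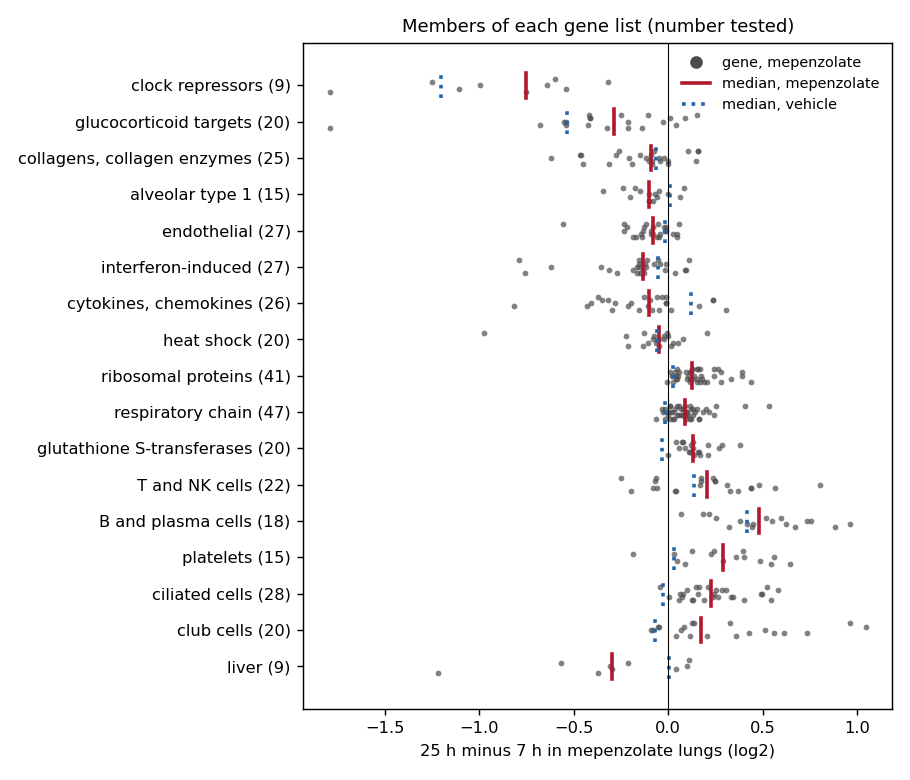
Log2 difference between 25 and 7 hours in mepenzolate lungs for each tested member of 17 gene lists, with the number of members in brackets; points are genes, the solid line is the list median in mepenzolate lungs and the dotted line is the median in vehicle lungs. The clock repressors lie wholly below 0 with a median of -0.75 and the B and plasma cell genes wholly above 0 with a median of 0.48.

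Most genes of the alveolar wall and the matrix stood slightly lower at 25 hours. Alveolar type 1 genes were below 0 in 13 of 15 members, with a median of -0.10 (0.01 in vehicle lungs, 6 below 0). Aqp5, the water channel of these cells, stood at 10.84 and 10.91 at 7 hours and at 10.55 and 10.51 at 25 hours (-0.34 ± 0.08), and Spock2, a proteoglycan gene, differed by -0.20 ± 0.08. Endothelial genes were below 0 in 23 of 27, with a median of -0.08 (-0.02 in vehicle lungs, 14 below 0). At an unadjusted p under 0.05, 5 were lower in mepenzolate lungs. That count was 1 with array weights, with the 4 mepenzolate arrays alone or without the replicate 2 array at 25 hours, and 2 without either array at 7 hours. Procr, the endothelial protein C receptor, stood at 7.90 and 7.76 and then at 7.15 and 7.40 (-0.56 ± 0.11, adjusted p = 0.255), while its vehicle levels ran from 7.77 to 7.88. The unadjusted p for that difference between treatments was 0.0057. Apln and Edn1, genes of the vasoactive peptides apelin and endothelin 1, differed by -0.22 ± 0.08 and -0.23 ± 0.09.

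Collagen chains and their crosslinking enzymes were below 0 in 20 of 25 members, with a median of -0.09 (-0.06 in vehicle lungs, 18 below 0). In mepenzolate lungs 8 were lower at an unadjusted p under 0.05, against 3.09% of all genes. That count was 3 without the replicate 2 array at 25 hours, 4 without the replicate 1 array at 7 hours and 5 in a fit of the 4 mepenzolate arrays alone. Col12a1, a collagen that decorates fibrils, stood at 8.24 and 8.07 at 7 hours and at 7.57 and 7.50 at 25 hours (-0.62 ± 0.09, 1.54-fold, adjusted p = 0.119). Its vehicle levels ran from 7.77 to 7.95, between the mepenzolate levels of the 2 times. Serpinh1, the collagen chaperone HSP47, differed by -0.46 ± 0.09 and Plod1, a lysyl hydroxylase gene, by -0.45 ± 0.10. Fibroblast and pericyte genes had a median of -0.08 (-0.04 in vehicle lungs), with the microfibril gene Mfap4 at -0.38 ± 0.09. Smooth muscle genes had a median of -0.04, against -0.14 in vehicle lungs. Without the replicate 2 array at 25 hours the mepenzolate median was 0.07, with 12 of 16 above 0. Without the replicate 1 array at 25 hours it was -0.23. Hhip differed by -0.40 ± 0.08 and the contractile gene Smtn by -0.34 ± 0.10. Alveolar type 2 genes had a median of -0.00 with members in both directions. Scd1, a fatty acid desaturase gene used in surfactant lipid synthesis, stood at 12.56 and 12.38 and then at 13.02 and 12.86 (0.47 ± 0.09, adjusted p = 0.276), and in vehicle lungs it differed by 0.35.

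Most genes of protein synthesis and respiration stood higher at 25 hours by small amounts. Ribosomal protein genes were above 0 in 40 of 41 members, against 47.9% of all genes, with a median of 0.13 (0.03 in vehicle lungs, 28 above 0). At an unadjusted p under 0.05, 6 were higher in mepenzolate lungs, against 3.28% of all genes. Rps29 stood at 10.71 and 10.81 at 7 hours and at 11.17 and 11.23 at 25 hours (0.44 ± 0.09), Rpsa differed by 0.33 ± 0.08 and Rps9 by 0.28 ± 0.08. Ribosomal protein genes have many near-identical pseudogene copies, so their probes may take signal from these. The list median was 0.01 without the replicate 2 array at 25 hours and 0.25 without the replicate 1 array. Without the replicate 1 array at 25 hours, 17 ribosomal genes were higher at that p. Respiratory chain genes were above 0 in 40 of 47 members, with a median of 0.09 (-0.02 in vehicle lungs, 21 above 0). Of them 2 were higher at an unadjusted p under 0.05 in mepenzolate lungs, a share close to the 3.28% of all genes. The median was 0.05 without the replicate 1 array at 25 hours (28 above 0) and 0.05 without the replicate 2 array at 7 hours (34 above 0). Atp5l, a subunit gene of the ATP synthase, stood at 9.98 and 10.11 and then at 10.62 and 10.54 (0.53 ± 0.09, adjusted p = 0.22), and Cox7b differed by 0.41 ± 0.11.

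The list with the muscarinic receptors, which the drug blocks, also held acetylcholine enzymes, transporters and signalling partners. Its 13 tested members had a median of -0.02, and none had an unadjusted p under 0.05. The 12 tested NADPH oxidase genes had a median of 0.02, with Rac2, the GTPase of the phagocyte oxidase, at 0.25 ± 0.08 and 0.38 in vehicle lungs. The 20 lipid oxidation genes had a median of 0.00, 10 above and 10 below 0. In vehicle lungs their median was -0.10, with 18 below 0. In mepenzolate lungs 3 were lower at an unadjusted p under 0.05, against 3.09% of all genes, and 1 higher, against 3.28%. The higher one was Acadm, an acyl-CoA dehydrogenase gene, at 0.18 ± 0.08. Angptl4, an inhibitor of lipoprotein lipase, differed by -0.42 ± 0.10, Cpt1a, the carnitine acyltransferase of fatty acid import, by -0.36 ± 0.09 and Pdk4, which restrains glucose oxidation, by -0.55 ± 0.21. In vehicle lungs these 3 genes differed by -0.62, -0.38 and -0.90. Lists of proliferation (median 0.04), cholesterol synthesis (0.05) and metallothionein and acute phase genes (0.04) held no member at an unadjusted p under 0.05.

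Lists of tissues that can be carried over at dissection were read as well. Cardiac muscle genes had a median of 0.08, with scores on the 2 mepenzolate arrays at 25 hours of 0.15 and -0.18. Without the replicate 1 array at 25 hours the cardiac median was -0.08, and without the replicate 2 array it was 0.27. Nppa, the atrial natriuretic peptide gene, stood at 7.96 and 6.99 at 7 hours and at 9.05 and 9.40 at 25 hours (1.75 ± 0.43, adjusted p = 0.396), the most positive difference of the genes named here, and its vehicle levels ran from 7.79 to 9.10. Skeletal muscle genes had a median of -0.03, adipocyte genes of 0.14, mesothelial genes of 0.07, neural genes of 0.02 and genes of the upper airway or oesophagus of -0.04, with no member of these 5 lists at an unadjusted p under 0.05. The adipocyte median was -0.06 without the replicate 1 array at 25 hours and 0.31 without the replicate 2 array.

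**Figure D5:**
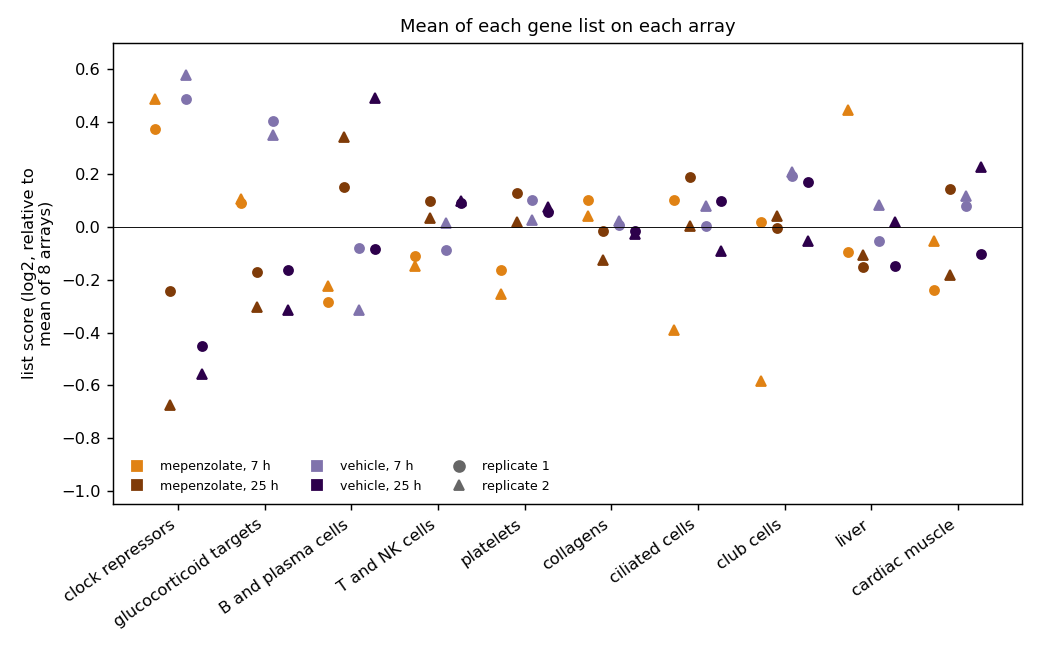
Mean of each of 10 gene lists on each array, as log2 level relative to each gene's mean over the 8 arrays; colours are treatment and time, circles are replicate 1 and triangles are replicate 2. The mepenzolate replicate 2 array at 7 hours sits at -0.58 for club cells, -0.39 for ciliated cells and 0.45 for liver, apart from the other 7 arrays.

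The remaining genes with the smallest p-values among those higher at 25 hours were secreted or metabolic. Ppp1r3c, which brings protein phosphatase 1 to glycogen, stood at 7.75 and 7.52 at 7 hours and at 8.27 and 8.41 at 25 hours (0.71 ± 0.10, adjusted p = 0.119), with 0.64 in vehicle lungs. Adm, the vasodilator adrenomedullin, stood at 7.23 and 6.93 and then at 7.70 and 7.96 (0.75 ± 0.13, adjusted p = 0.184), while in vehicle lungs Adm rose by 1.06 (adjusted p = 0.0322). Spon2, a secreted matrix protein gene, stood at 7.22 and 7.02 and then at 7.90 and 7.72 (0.69 ± 0.11), and in vehicle lungs it rose by 1.42 (adjusted p = 0.0158). Spon2 had an unadjusted p of 0.0018 for the difference between treatments. Dio2, which activates thyroid hormone, differed by 0.57 ± 0.10, and the vault RNA gene Vaultrc5 by 0.93 ± 0.15, against 0.14 in vehicle lungs.

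The genes with the smallest p for the difference between the 2 time courses, none of which passed, mostly had differences of opposite sign. Besides Padi4, Cd3g, Gbp4 and Spon2 these were 6 genes. Pon1, a lactonase gene, stood at 10.60 and 10.50 at 7 hours and at 10.84 and 10.97 at 25 hours in mepenzolate lungs, a difference of 0.36, against -0.42 in vehicle lungs. Grid1, a glutamate receptor gene of the delta type, differed by 0.21 against -0.73 and Rtn1, a reticulon gene, by 0.12 against -0.59. Sdhaf4, an assembly factor of succinate dehydrogenase, differed by -0.28 against 0.32 and the F-box gene Fbxo44 by -0.46 against 0.68. Sox18, an endothelial transcription factor gene, differed by -0.13 in mepenzolate and 0.39 in vehicle lungs. Their unadjusted p-values ran from 0.0003 for Rtn1 to 0.0021 for Sox18.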

How the data were processed

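Lung RNA of 8 samples, in 4 groups of 2, was measured on Affymetrix arrays. The log2 values used were deposited by the authors as a table of 34760 probes, made with RMA per the submitters' processing notes; its version is not given in the sources used here. Of these probes 21640 carry 1 gene symbol, 1321 carry several and 11799 carry none in the platform annotation. The brightest probe by mean over 8 arrays was kept for each of 19937 genes, and 14953 whose mean level reached the 25th percentile (5.93) were tested. limma 3.58.1 in R 4.3.3 fitted the 4 group means over all 8 arrays, with lmFit and eBayes; p-values were adjusted by Benjamini-Hochberg over all genes tested, at 0.05. With 2 arrays against 2, an exact permutation test of a single gene cannot go below 0.333 (two-sided), so none is given. Errors are standard errors of the fit, and the number of arrays limits the precision.

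A list score is the mean, over the tested genes of a list, of each level minus that gene's mean over the 8 arrays. Named genes were the 15 with the smallest p in each direction without overlap between times (passing genes first), all clock list members, up to 3 members of every other list by absolute moderated t, and the 5 with the smallest p in each direction of the difference between treatments; exceptions are stated. The members, the 46 gene lists and the motifs were chosen with earlier results of these data known. Promoter motifs were matched in Python 3.11.15. The code was tested on simulated data. Alternatives were another normalization, centring, filter, probe rule, variance model, array weights, the 4 compared arrays alone, the replicate number as a block, and each array left out.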

Additional observations from a re-analysis of the deposited data

How the results depend on the processing

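The count of 4 genes past the threshold in mepenzolate lungs was 4 with median centring or with the mean of a gene's probes, 3 with the stricter filter and 6 with an intensity trend and robust estimation, which added Cd3g and Cd52. It was 0 with quantile normalization, 1 without a filter (Arntl), 0 with array weights and 1 with the 4 mepenzolate arrays alone (Per1). The vehicle count of 13 was 7 with quantile normalization, 33 with trend and robust estimation and 55 with array weights. Leaving out 1 array at a time gave 0 to 2 genes in mepenzolate lungs, 0 to 14 in vehicle lungs and 0 to 2 for the difference between treatments, which was 0 in the other alternatives that give it. Fits of each treatment alone give no difference between treatments. A group left with 1 array is assumed there to vary like the others. The cause of these moves was not tested.

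The labels do not say what a shared replicate number means. Deviations of same-numbered arrays from their group means correlated at 0.40 between the mepenzolate times and at -0.02 between the vehicle times. Over the 6 pairs of groups 3 correlations were above 0.1. With the replicate number as a block, 9 genes passed in mepenzolate lungs (Per1, Ms4a4b and Plcb1 among those added), 17 in vehicle lungs and 0 for the difference between treatments.

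Among the named genes, those whose sign turned were near 0, apart from Alb. Fbxl21 stood at -0.00955 with median centring. When 1 array was left out, Fbxl21 ran from -0.018 to 0.026, Lonrf3 from -0.11 to 0.19, Nampt from -0.0033 to 0.049 and Alb from -2.56 to 0.12. RMA values carry no detection call, so dim genes have no measured floor. Of the list medians, 22 changed sign without at least 1 mepenzolate array, with values over all arrays from -0.30 for liver to 0.23 for ciliated cell genes.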
